A study of Homo sapiens with 8 samples.

Results

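IGF2BP1 binding was mapped on 8 genes of fatty acid desaturation and sterol synthesis, namely SCD, SC5D, FADS1, FADS2, FASN, INSIG1, SQLE and HMGCS1, in H1299 cells treated with AVJ16 or with DMSO. The members were all eCLIP peaks lying within these genes on the same strand, 90 of 22311 peaks in the DMSO list and 100 of 22123 peaks in the AVJ16 list. The genes were chosen by pathway with results of these same lists already known, among them the high number of AVJ16 peaks in SCD and the large difference in SC5D, so the peak numbers and enrichments of these genes are given as a description without a test. No peak of the 8 genes lay in another gene of the same strand. FADS1 and FADS2 overlap on opposite strands, and the strand of each peak set them apart.

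The H1299 line comes from a human lung carcinoma of the non-small cell type, makes its own IGF2BP1 and was used as wild-type cells. AVJ16 is a small molecule that binds IGF2BP1. The cells received 1.5 μM AVJ16 or 0.01% DMSO, the vehicle, for 24 h, and all were crosslinked with ultraviolet light before IGF2BP1 was pulled down with an antibody. Each treatment had 2 immunoprecipitated (IP) libraries and 2 size-matched input libraries, 8 libraries in all. The input holds crosslinked RNA of the same size range without the pull-down. The cells of both treatments came from the same thaw, and nothing in the labels names separate cultures. The deposited data hold 1 merged list of peaks per treatment, in which both replicates were combined, so no spread between replicates can be had from them for any value below, and no p-value for a difference between treatments is given.

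Each peak carries a log2 fold enrichment, the reads of the IP over those of the input on a log2 scale, and a −log10 p-value for that enrichment. The lowest enrichment in both lists was 3.00, which is 8-fold, and the lowest −log10 p-value was 3.01 in the DMSO list and 3.00 in the AVJ16 list. The −log10 p-value has an upper limit of 400 in these lists. Total reads per library are not in the lists, so a gene without a peak may be unbound or may lie under these thresholds. Enrichment is relative to the input of the same treatment, and a change in the IP and a change in the input cannot be told apart in these values.

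IGF2BP1 is an oncofetal RNA-binding protein that attaches to mRNAs through RRM and KH domains, often in the 3’UTR, and is known for protecting its targets from decay. Lipid synthesis starts from acetyl-CoA and divides into a branch that makes fatty acids, which desaturases then supply with double bonds, and a branch that makes cholesterol through mevalonate, squalene and a series of sterols. Both branches are controlled by the SREBP transcription factors, which INSIG1 holds back in the endoplasmic reticulum when sterols are plentiful.

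The sequences at the strongest peaks are shown first, since they mark where on each transcript the enrichment over input was highest. Each run is the RNA of 30 nt centred on the peak, read from GRCh38 on the gene’s strand. Capitals mark bases inside the peak, and where the peak is longer than 30 nt the whole run is in capitals. All but 1 of the runs shown lie in a 3’UTR, and that of FADS2 lies in the coding sequence (CDS). SQLE is not shown, and its highest peak lay in the CDS in both lists, with 3.91 and 3.45. SCD is shown for its highest peak in both lists, whose centres were the same to within 1 nt.
SCD, DMSO, chr10:100361051-100361080, plus strand: caguacaguaUUCUUUUAAAauucaaaagu
SCD, AVJ16, chr10:100361051-100361080, plus strand: caguacaguauUCUUUUAAAauucaaaagu
SC5D, highest DMSO peak, chr11:121309521-121309550, plus strand: uucagGUUAUCCACACACUAAUCAUcucag
SC5D, highest AVJ16 peak, chr11:121311084-121311113, plus strand: GAUGCCAGAUUCCUUGGAAGUAGAGACCGU
FADS1, highest DMSO peak, chr11:61799838-61799867, minus strand: AGAUAUAAAAUAGGCUUAGAGAGGAAAAGC
FADS1, highest AVJ16 peak, chr11:61799708-61799737, minus strand: UGGCCAGAGGCAUUUUUUAAAUCAGGCCCA
FADS2, highest AVJ16 peak, chr11:61865175-61865204, plus strand: ACAACUUACACAAGAUCGCCCCGCUGGUGA
FASN, highest DMSO peak, chr17:82078369-82078398, minus strand: ACACCAAUUUGGUAAAAAUGCUGCUCUCAG
INSIG1, highest DMSO peak, chr7:155308498-155308527, plus strand: uggagcAUUCUGCCCAGGCUACGUggguuc
INSIG1, highest AVJ16 peak, chr7:155308528-155308557, plus strand: AGGCAGGUGGCAGCUUCCCAAGUAUUCGAU
HMGCS1, the DMSO peak, chr5:43290682-43290711, minus strand: GUGGUUUUUGGAAAACAUUUCUAGCUUGGG

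The strongest peak of SCD covered nearly the same bases in both lists, whereas those of SC5D and FADS1 lay in different sites. On the spliced mRNA of SC5D, the highest DMSO peak was in the site 2014 to 2115 nt past the stop codon and the highest AVJ16 peak in the site 3494 to 3690 nt past it. In FADS1 they were in neighbouring sites close to the 3’ end, at 2521 to 2595 and 2640 to 2716 nt past the stop codon. In INSIG1 both lay in the site 179 to 334 nt past the stop codon, in peaks next to each other.

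Peaks were found in 7 of the 8 genes in each list. With DMSO, SCD held 42 peaks, SC5D 18, INSIG1 11, SQLE 9, FADS1 7, FASN 2 and HMGCS1 1, and FADS2 held none. With AVJ16, SCD held 57, SC5D 17, FADS1 10, INSIG1 6, SQLE 5, FADS2 3 and FASN 2, and HMGCS1 held none. SCD thus carried the most peaks of the 8 genes in both lists. Among all protein-coding genes, SCD ranked 11 by number of peaks in the DMSO list and 3 in the AVJ16 list.

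**Figure D1:**
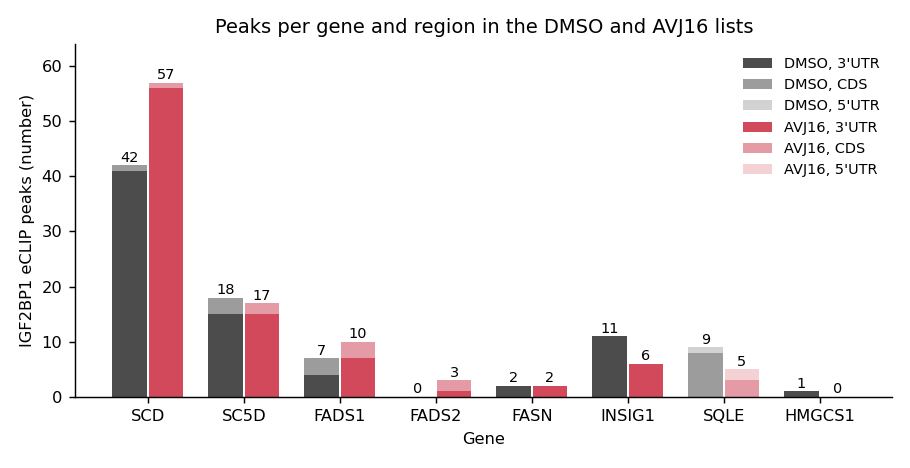
Number of IGF2BP1 eCLIP peaks in each of the 8 genes, with DMSO bars in grey and AVJ16 bars in red and the shade giving the region (3’UTR, CDS or 5’UTR). SCD has 42 peaks with DMSO and 57 with AVJ16, and SQLE is the gene whose peaks are all in the CDS and 5’UTR.

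Of the 90 DMSO peaks, 74 lay in a 3’UTR, 15 in a CDS, 1 in a 5’UTR and 0 in an intron. Of the 100 AVJ16 peaks, 87 lay in a 3’UTR, 11 in a CDS, 2 in a 5’UTR and 0 in an intron. The 3’UTR share was 82.2% with DMSO and 87.0% with AVJ16, beside 74.6% and 75.0% of all peaks of the same lists. Without SCD it was 68.8% (33 of 48) and 72.1% (31 of 43), below the shares over all peaks. The 3’UTR held every INSIG1 peak and all but 1 SCD peak of each list, and no SQLE peak. The median log2 fold enrichment of the peaks was 3.56 with DMSO and 3.42 with AVJ16, close to the medians of 3.63 and 3.61 over all peaks.

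Most of the peaks were seen with both treatments. A DMSO peak was counted as shared when at least 1 nt of it was covered by an AVJ16 peak on the same strand. This held for 71 of 90 DMSO peaks, or 78.9% (Wilson 95% interval 69.4% to 86.0%, covering counting error only), beside 66.2% of all DMSO peaks. Conversely, 78 of 100 AVJ16 peaks, or 78.0% (68.9% to 85.0%), overlapped a DMSO peak, beside 70.8% of all AVJ16 peaks. In SCD, 39 of 42 DMSO peaks and 47 of 57 AVJ16 peaks were shared. In the other 7 genes 32 of 48 DMSO peaks (66.7%) and 31 of 43 AVJ16 peaks (72.1%) were shared, near the shares over all peaks.

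When peaks that touch or overlap were joined over both lists, the 8 genes held 57 sites, of which 35 were bound with both treatments, 10 with DMSO alone and 12 with AVJ16 alone. SCD held 15 sites, 13 of them in both lists and 2 with AVJ16 alone. SC5D held 14 sites (8 in both, 3 with DMSO alone, 3 with AVJ16 alone) and FADS1 10 (5, 2 and 3). INSIG1 held 6, of which 5 were in both lists and 1 was seen with DMSO alone. SQLE held 7, of which 3 were in both lists, 3 were seen with DMSO alone and 1 with AVJ16 alone. The same split over all joined sites of the lists is not given here. At the level of peaks, 66.2% of all DMSO and 70.8% of all AVJ16 peaks overlapped the other list, so sites of a single list are not particular to these genes.

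Among the desaturases, SCD (stearoyl-CoA desaturase, ENSG00000099194.6) places the first double bond into saturated fatty acyl-CoA and so makes monounsaturated fatty acids. The gene lies on chromosome 10 from 100347233 to 100364826 on the plus strand, and its mRNA has a 3’UTR of 3893 nt. All but 1 peak of each list lay in that 3’UTR. Peaks covered 28.4% of the 3’UTR with DMSO and 32.5% with AVJ16, against medians of 7.82% and 7.59% over bound genes with a 3’UTR of at least 1000 nt. By that share SCD ranked 321 of 3813 genes with DMSO and 247 of 3446 with AVJ16. SCD stood nearer to the top of the lists by its number of peaks than by the share of its 3’UTR that was bound.

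The bound sites of SCD were spread over the 3’UTR but ended well before its end. The first site ran from 111 to 44 nt before the stop codon, and the last one ended 3037 nt past it, 856 nt before the 3’ end of the mRNA. The highest enrichment in both lists was in the site 83 to 195 nt past the stop codon. It reached 5.01 with DMSO, in the peak from 100361061 to 100361070, and 4.78 with AVJ16, in the peak from 100361062 to 100361070. These are the first 2 sequences printed above. The longest site, of 264 nt, lay 2388 to 2651 nt past the stop codon, and held 8 DMSO peaks with up to 4.07 and 10 AVJ16 peaks with up to 3.92.

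**Figure D2:**
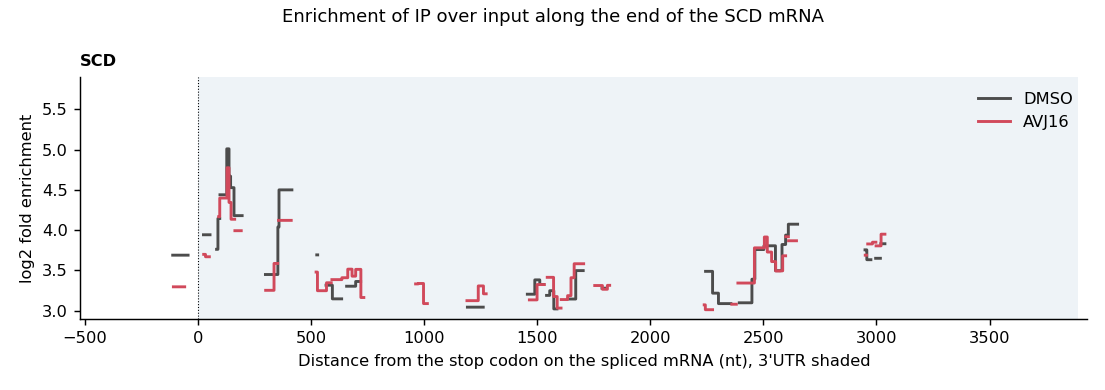
Log2 fold enrichment of IP over input (vertical axis) along the end of the spliced SCD mRNA, by distance from the stop codon in nt, in the DMSO list (grey) and the AVJ16 list (red), with the 3’UTR shaded. The highest peaks of both lists, 5.01 and 4.78, stand in the same site 83 to 195 nt past the stop codon, and no peak lies in the last 856 nt.

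The enrichments of paired SCD peaks lay within 0.5 of each other. At its 39 shared DMSO peaks, the difference between the enrichments (AVJ16 minus DMSO) had a median of −0.01 and ranged from −0.48 to 0.26, and 0 of 39 differed by more than 0.5. Among all 14759 shared peaks, 20.1% were lower by more than 0.5 with AVJ16 and 12.6% were higher. Neither list holds a peak under 3.00. A DMSO peak within 0.5 of that threshold therefore could not be lower by more than 0.5 and still be shared. This limits the count of lower peaks in SCD, whose DMSO peaks had a median enrichment of 3.57, and among all shared peaks. The SD of the difference was 0.20 over the SCD peaks and 0.56 over all shared peaks. SCD peaks had very high −log10 p-values, and the same values are given for other peaks of that kind. At the 499 shared peaks outside SCD that stood at the limit of 400 in both lists, the SD was 0.35 and 15.2% differed by more than 0.5. At the 7406 shared peaks with a −log10 p-value under 20 in both lists, the SD was 0.60 and 36.8% differed by more than 0.5.

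Within SCD, the sites near the stop codon had the higher enrichments and mostly negative differences. The boundary used to describe them, 415 nt past the stop codon at the end of the fourth site, was chosen after the values were seen. Up to there, 9 of 11 shared DMSO peaks had a lower enrichment with AVJ16, with a median difference of −0.23. Farther on, 13 of 28 were lower and 15 were higher, with a median of 0.03. Peaks that reached a log2 enrichment of 4 numbered 8 of 12 near the stop codon with DMSO and 6 of 12 with AVJ16, and 1 of 30 and 0 of 45 farther on. The lowest difference in SCD, −0.48, was at the peak from 100363178 to 100363208, where 3.49 with DMSO stood beside 3.01 with AVJ16. The highest difference, 0.26, was at the peak from 100362569 to 100362603, with 3.15 and 3.41.

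The higher number of SCD peaks with AVJ16 came with less difference in the bases covered. The peaks covered 1172 nt with DMSO and 1315 nt with AVJ16, of which 1018 nt were in both lists. The AVJ16 peaks were shorter, with a median length of 19 nt against 24 nt, and after touching peaks were joined within each list there were 18 sites with DMSO and 22 with AVJ16. The sites seen with AVJ16 alone lay at 100361896 to 100361947, with 3 peaks of 3.09 to 3.34, and at 100363294 to 100363313, with 1 peak of 3.08. Both were close to the threshold of the lists.

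The −log10 p-values of SCD were higher in the list that had more SCD peaks. With AVJ16, all 57 peaks were at the limit of 400, and with DMSO 31 of 42 were, while the other 11 ranged from 68.5 to 87.6. Of these 11 peaks, 9 had an AVJ16 partner at the limit and 2 had no partner. Over the whole lists 677 DMSO and 799 AVJ16 peaks were at the limit. Among protein-coding genes, SCD held the most of these in the AVJ16 list and shared the first rank with CANX in the DMSO list. The −log10 p-value grows with the number of reads as well as with enrichment, and the part of read number in the number of SCD peaks was not tested.

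The protein-coding genes nearest to SCD in their pair of peak numbers were found by distance on the log2(number + 1) scale over the 2 lists. They were NUCKS1 with 44 DMSO and 54 AVJ16 peaks, NOTCH2 with 42 and 51, and SLC7A1 with 38 and 54. NUCKS1 encodes a nuclear phosphoprotein, NOTCH2 a signalling receptor and SLC7A1 a cationic amino acid transporter. Peaks covered 29.2% and 32.5% of the 3’UTR of NUCKS1 with DMSO and AVJ16, 40.3% and 42.9% of that of NOTCH2, and 33.1% and 40.6% of that of SLC7A1. They differed from SCD in the peaks at the −log10 p limit, of which NUCKS1 held 26 and 24, NOTCH2 3 and 5, and SLC7A1 8 and 6.

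FADS1 and FADS2 encode the desaturases of polyunsaturated fatty acids. FADS1 (ENSG00000149485.19) lies on chromosome 11 from 61799627 to 61829318 on the minus strand. It held 7 DMSO peaks with enrichments from 3.14 to 3.59 and 10 AVJ16 peaks from 3.16 to 4.16. The bound share of its 3’UTR of 2784 nt was 8.73% with DMSO and 17.0% with AVJ16. In the 3’UTR the sites lay within 654 nt of the stop codon or from 2400 nt past it to near the 3’ end, with no peak of either list between them.

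At the 5 shared FADS1 peaks the median difference was 0.16, with a range from −0.20 to 0.91. The peak from 61799700 to 61799771, close to the 3’ end of the mRNA, went from 3.24 with DMSO to 4.16 with AVJ16, and its −log10 p-value went from 13.8 to 27.1. The peak from 61801836 to 61801881 went from 3.15 to 3.73. The lowest difference was at the peak from 61802355 to 61802412, at the start of the 3’UTR, which went from 3.40 to 3.20. Among sites of a single list, the one 87 to 172 nt past the stop codon held 2 AVJ16 peaks of 3.25 and 3.87, and the 2 sites seen with DMSO alone lay in the CDS with 3.22 and 3.45.

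FADS2 (ENSG00000134824.14), on chromosome 11 from 61792980 to 61867354 on the plus strand, had peaks with AVJ16 alone. The 3 peaks had enrichments of 3.24, 3.66 and 3.35, and −log10 p-values of 3.20, 6.69 and 3.48, so that 2 of the 3 were close to the lowest −log10 p-value of the list. The first and second lay in the CDS and the last one in the 3’UTR, 18 to 76 nt past the stop codon.

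FASN (ENSG00000169710.9), the multifunctional enzyme that builds palmitate, lies on chromosome 17 from 82078338 to 82098294 on the minus strand. It was bound at a single site in both lists, which ended 23 nt before the 3’ end of the mRNA. The 2 peaks of this site had 4.11 and 3.69 with DMSO, and 3.59 and 3.21 with AVJ16, so both were lower with AVJ16, by differences of −0.52 and −0.48. The site covered 79 nt with DMSO and 75 nt with AVJ16 and 73 nt in both. No peak was found in the 5’UTR or in the CDS of 7536 nt.

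In the cholesterol branch, HMGCS1 (ENSG00000112972.15) makes HMG-CoA, SQLE (ENSG00000104549.12) adds the oxygen to squalene, and SC5D (ENSG00000109929.10) introduces a double bond into the sterol ring late in the pathway. HMGCS1, on chromosome 5 from 43287470 to 43313512 on the minus strand, had 1 DMSO peak, 384 to 485 nt past the stop codon, with an enrichment of 4.08 and a −log10 p-value of 9.70. It had no AVJ16 peak. The enrichment was well above the threshold of the list, although its −log10 p-value was under the list median of 12.7.

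SC5D lies on chromosome 11 from 121292681 to 121313410 on the plus strand and has the longest 3’UTR of the 8 genes, 5898 nt. Its 18 DMSO peaks had enrichments from 3.04 to 4.65, and its 17 AVJ16 peaks from 3.02 to 5.68. The bound share of the 3’UTR was 17.4% and 18.2%. In contrast to SCD, similar numbers of peaks and a similar bound length came with large differences in enrichment at single sites.

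At the SC5D site 3494 to 3690 nt past the stop codon, 3 DMSO peaks with 3.84, 3.34 and 3.94 faced 1 AVJ16 peak, from 121311016 to 121311182, with 5.68. The middle DMSO peak, from 121311065 to 121311123, had a difference of 2.33, which ranked 1 of the 14759 shared peaks. The outer peaks, with 1.84 and 1.74, ranked 21 and 34. These 3 differences share 1 AVJ16 peak and are not independent. The −log10 p-value at the site was up to 17.9 with DMSO and 36.5 with AVJ16. Base by base over the 167 nt in both lists, the mean difference was 1.98.

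The next SC5D site, 3705 to 3886 nt past the stop codon, was higher with AVJ16 as well, with 3.61 and 4.86 at the peak from 121311231 to 121311294, whereas the peak beside it went from 3.04 to 3.25. Near the stop codon, the peak from 121307567 to 121307684 went from 3.27 to 3.94. The lowest difference, −0.80, was at the CDS peak from 121307182 to 121307315, with 4.34 against 3.54 in its partner. A neighbouring AVJ16 peak, from 121307169 to 121307210, overlapped the start of that DMSO peak with 4.38, so the lower value concerns the later bases of that peak. The highest DMSO peak, from 121309526 to 121309545, had 4.65 against 4.14 in its partner, from 121309541 to 121309626. That partner overlaps only the end of the peak and is also the partner of the next DMSO peak, which had 3.88. Base by base over the nt of this site in both lists, the mean difference was 0.22. Over the 14 shared peaks of SC5D the median difference was 0.23, and 5 were higher by more than 0.5 and 2 lower.

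**Figure D3:**
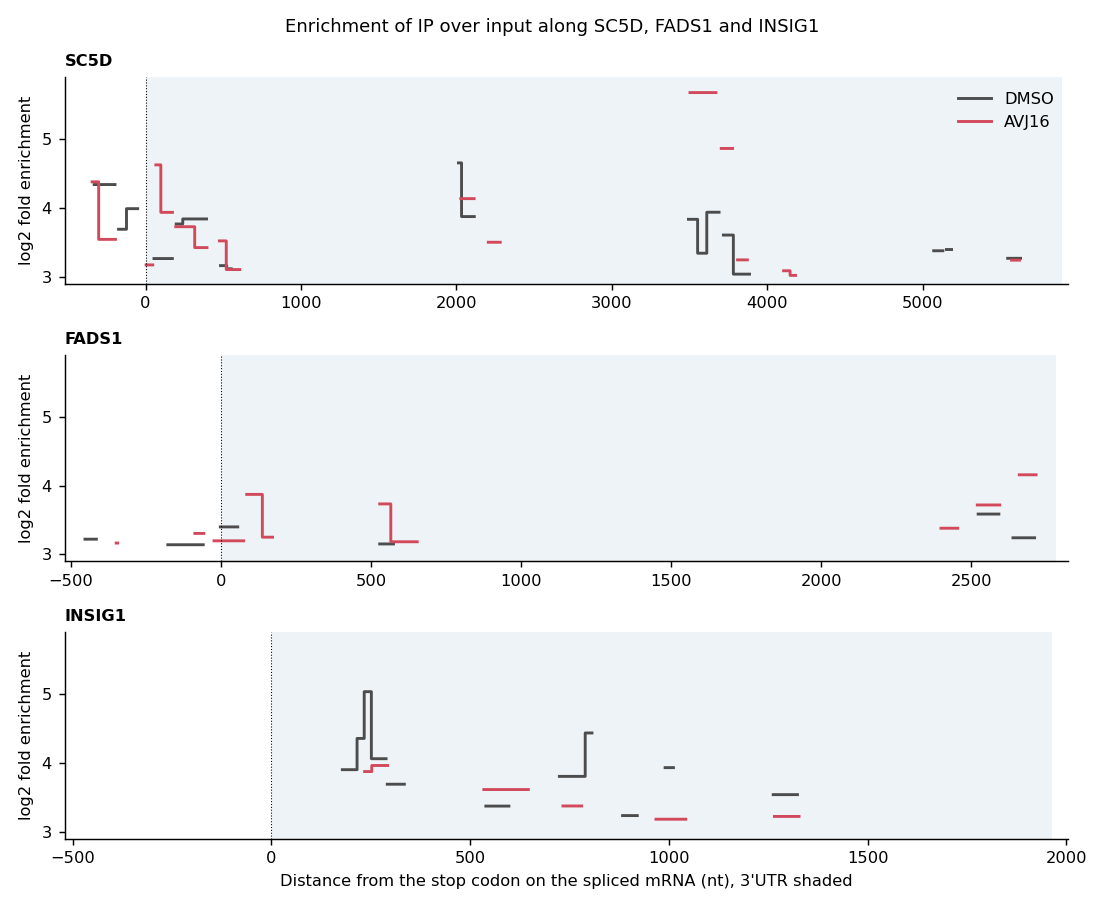
Log2 fold enrichment of IP over input (vertical axis) by distance from the stop codon on the spliced mRNAs of SC5D, FADS1 and INSIG1 (top to bottom), in nt, with DMSO in grey, AVJ16 in red and the 3’UTR shaded; the axis starts 500 nt before the stop codon, which leaves out 1 DMSO peak of FADS1. SC5D holds the AVJ16 peak of 5.68 above 3 DMSO peaks of 3.34 to 3.94, and INSIG1 the DMSO peak of 5.04 above AVJ16 peaks of up to 3.96.

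SQLE lies on chromosome 8 from 124998497 to 125022283 on the plus strand and has a short 3’UTR of 338 nt, in which there was no peak. With DMSO, 9 peaks lay in the 5’UTR and CDS with 3.12 to 3.91, and with AVJ16, 5 peaks with 3.03 to 3.45. The bases covered went from 611 nt to 260 nt, of which 205 nt were in both lists. At the 4 shared peaks the differences ranged from −0.57 to −0.08 with a median of −0.33, and base by base over the nt in both lists the median was −0.57. The strongest site, 784 to 646 nt before the stop codon, reached 3.91 with DMSO and 3.45 with AVJ16. The sites seen with DMSO alone were all in the CDS and had at most 3.33.

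INSIG1 (ENSG00000186480.13), the anchor of the SREBP and SCAP complex in the endoplasmic reticulum, lies on chromosome 7 from 155297776 to 155310235 on the plus strand. All its peaks were in the 3’UTR of 1965 nt, of which 21.0% was bound with DMSO and 18.0% with AVJ16. The DMSO peaks had enrichments from 3.24 to 5.04 and the AVJ16 peaks from 3.18 to 3.96. The site 179 to 334 nt past the stop codon held 5 DMSO peaks, with 3.90, 4.36, 5.04, 4.06 and 3.69 in order along the mRNA. With AVJ16 it held 2 peaks, with 3.88 and 3.96, and the bases covered there went from 153 to 58 nt.

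The peak from 155308504 to 155308521 in that INSIG1 site had the lowest difference of the 8 genes, −1.16, from 5.04 to 3.88. Its −log10 p-value was 32.5 with DMSO and 19.6 in the AVJ16 partner. The peak from 155309261 to 155309281 went from 3.93 to 3.18. The highest difference was 0.27, at the peak from 155308562 to 155308604. Its AVJ16 partner reaches only the first base of this peak and is also the partner of the peak before it. Over the 7 shared peaks of INSIG1 the median difference was −0.32, and 2 were lower by more than 0.5 and 0 higher.

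Over the 8 genes, 6 of 71 shared peaks (8.45%) were lower with AVJ16 by more than 0.5 and 7 (9.86%) were higher, against 20.1% and 12.6% of all shared peaks. SCD gave 39 of the 71 shared peaks and 0 of those beyond 0.5. In the other genes 6 of 32 (18.8%) were lower and 7 of 32 (21.9%) higher, and of the 7, the SC5D site described above gave 3. The lower peaks were 2 in SC5D, 2 in INSIG1, 1 in FASN and 1 in SQLE, and the higher ones 5 in SC5D and 2 in FADS1. The direction was thus mixed within SC5D, while in FASN and SQLE every shared peak was lower, by at least 0.08. A DMSO peak within 0.5 of the threshold of 3.00 could not be lower by more than 0.5 and still be shared. This limits the count of lower peaks in FADS1, whose DMSO enrichments were 3.14 to 3.59. Base by base, 296 (10.9%) of the 2717 nt in both lists were lower by more than 0.5 and 420 (15.5%) higher. Of the 420 higher nt, 167 lay in the SC5D site 3494 to 3690 nt past the stop codon, under 1 AVJ16 peak. The same shares over all nt of the lists are not given here.

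**Figure D4:**
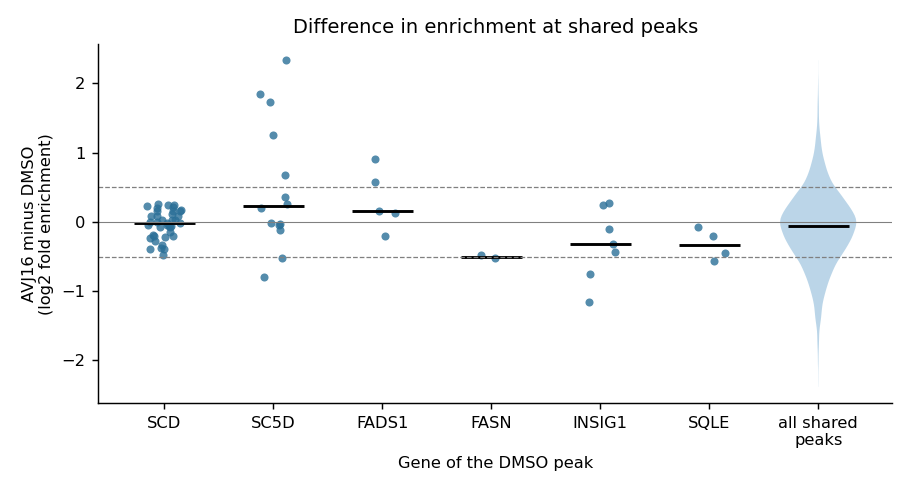
Difference between the log2 enrichments, AVJ16 minus DMSO (vertical axis), at each shared DMSO peak, with 1 point per peak, by gene, beside the distribution over all 14759 shared peaks; black bars are medians and dashed lines mark −0.5 and 0.5. The 39 SCD peaks lie between −0.48 and 0.26, whereas SC5D ranges from −0.80 to 2.33.

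The bound stretches differed in base composition from the rest of the 3’UTR in some of the genes. In the 3’UTR of FASN, the 81 bound nt had a GC content of 45.7% and the remaining bases 65.2%. In INSIG1 it was the bound part that was richer in GC, with 44.4% against 34.9%, and likewise in SCD with 46.8% against 42.3%. In SC5D both parts were alike, with 35.6% and 36.6%.

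Short sequences were looked for in windows of 61 nt centred on the 3’UTR peaks, on the sense strand alone since RNA was bound, and their shares were set beside those of windows of the same length on all 3’UTR peaks of the list. Windows of neighbouring peaks overlap, and 41 of 74 DMSO and 56 of 87 AVJ16 windows were in SCD. UUUCCGAA was in 0 of 74 and 0 of 87 windows, which leaves room for up to 4.93% and 4.23% by the Wilson interval, and was also rare over all 3’UTR peaks (0.0240% and 0.0121%). UCCAG was in 12.2% of DMSO and 10.3% of AVJ16 windows, beside 8.66% and 8.82%, and all of these windows were in SCD. CCNGUU was in 2.70% and 3.45%, beside 6.11% of all windows in both lists, and in none of SCD. In the other genes CCNGUU was in 6.06% and 9.68%.

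GGAC was in 9.46% and 16.1% of the windows beside 12.4% and 13.2%, and UGGAC, which contains it, in 5.41% and 8.05% beside 4.73% and 5.13%. Outside SCD, UGGAC was in 3.03% and 3.23% of the windows, below the shares over all peaks. CAU and CACA, which are often named for IGF2BP proteins, were in 62.2% and 16.2% of DMSO windows beside 72.8% and 27.3% of all. With AVJ16 they were in 64.4% and 20.7% beside 71.8% and 27.7%. For CAU the lower share was that of SCD, with 51.2% of DMSO and 55.4% of AVJ16 windows. The other genes had 75.8% and 80.6%, above the shares over all peaks. In windows of 31 nt the other genes had 54.5% with DMSO, above the 47.9% of all. With AVJ16 they had 45.2%, below the 46.9% of all. CACA was in 12.1% and 12.9% of the windows of the other genes. AUUUA, the core of AU-rich elements, was in 4.05% and 3.45% beside 10.1% and 9.03%, and in none of the SCD windows. These are matches of letters and not mapped contacts of the protein.

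Other genes of lipid metabolism were taken from lists of 94 genes in 6 pathways. Apart from the 8 genes these lists hold 86 genes, of which 46 had a peak with DMSO (53.5%) and 40 with AVJ16 (46.5%). Over all 20046 protein-coding genes the shares were 25.8% and 23.2%. These were not limited to genes expressed in H1299 cells, so the shares are not matched for expression. Peaks were seen with both treatments in 38 genes, with DMSO alone in 8, with AVJ16 alone in 2 and with neither in 38. The same split over all protein-coding genes is not given here. In the whole lists more genes were bound with DMSO as well, 5178 against 4660 with AVJ16. At the 194 shared peaks of the 86 genes 44 (22.7%) were lower by more than 0.5 and 20 (10.3%) higher, near the shares over all peaks.

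Among 7 other genes of desaturation, 4 had a peak in each list. CYB5R3, the reductase that hands electrons to cytochrome b5, had 4 DMSO and 7 AVJ16 peaks, SCD5, a second stearoyl-CoA desaturase, had 3 and 4, and DEGS1, a desaturase of sphingolipids, 3 and 3. SCD5 was thus bound at far fewer sites than SCD, with up to 4.87 and 4.28. FADS3, FADS6 and DEGS2 had none. At the 12 shared peaks 3 were lower and 2 higher.

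Of 23 other genes of fatty acid synthesis and elongation, 13 were bound with DMSO and 12 with AVJ16. HACD2 and HACD3, dehydratases of the elongation cycle, had 20 and 11 DMSO peaks and 24 and 10 AVJ16 peaks, and HSD17B12, the ketoacyl reductase of the same cycle, had 9 and 10. ELOVL4, an elongase of very long chains, had 1 peak with DMSO alone. At the 51 shared peaks of this list 14 (27.5%) were lower by more than 0.5 and 3 (5.88%) higher, beside 20.1% and 12.6% of all shared peaks.

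Of 19 other genes of cholesterol synthesis, 7 were bound with DMSO and 6 with AVJ16. LBR, a sterol reductase of the inner nuclear membrane, had 7 and 10 peaks, and DHCR7, which makes cholesterol from its last precursor, 4 and 9. ACAT2 (2 peaks) and TM7SF2 (1 peak) were bound with DMSO alone and MSMO1 (1 peak) with AVJ16 alone. At the 38 shared peaks of this list 11 (28.9%) were lower and 4 (10.5%) higher.

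Of 13 other genes of sterol sensing, 7 were bound with DMSO and 5 with AVJ16. SPRING1, which is needed for SREBP activation, had 21 peaks in each list, and at its 19 shared peaks 2 were lower and 6 higher. MBTPS2, a protease that frees SREBP, had 14 and 17, with up to 5.84 and 6.12. SREBF2, the SREBP of the cholesterol branch, had 14 and 12, while SREBF1 had 2 peaks with DMSO alone. INSIG2 and SCAP, which are in the same list of sterol sensing as INSIG1, had no peak with either treatment. At the 52 shared peaks of this list 6 (11.5%) were lower and 8 (15.4%) higher.

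Of 10 genes of lipoprotein uptake and sterol transport, 6 were bound in each list, among them SOAT1, which makes cholesteryl esters, with 9 DMSO and 9 AVJ16 peaks, and NPC2, a lysosomal cholesterol carrier, with 5 and 7. Of 14 genes of glycerolipid synthesis, 9 were bound with DMSO and 7 with AVJ16. The acyltransferases AGPAT1, AGPAT3 and AGPAT5 had 11, 8 and 4 DMSO peaks and 12, 5 and 5 AVJ16 peaks. GPAT3, DGAT1 and DGAT2 were bound with DMSO alone and AGPAT4 with AVJ16 alone, each with 1 peak except DGAT2, which had 2. At the shared peaks of the uptake list 6 of 24 were lower and 1 higher, and at those of the glycerolipid list 4 of 17 were lower and 2 higher.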

How the data were processed

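eCLIP of IGF2BP1 was analysed in H1299 cells with 2 IP and 2 size-matched input libraries per treatment. Per the study's methods, the authors trimmed reads with cutadapt, set aside reads from repeats, aligned the rest with STAR, collapsed PCR duplicates, and called peaks with CLIPper, which were then set against the input. They deposited 1 list per treatment, merged over replicates by IDR, on GRCh38. Its columns are the deposited −log10 p-value and the deposited log2 fold enrichment of IP over input. The lists start at a log2 fold enrichment of 3, the limit that the study gives with its results; its methods give the limit without the log2. The methods name an older Gencode release than the one used here. Total reads are not in the lists, so depth is unknown, and no interval that needs it was given.

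Peaks were assigned to genes on the same strand with GENCODE 44 and bedtools 2.31.1 with CDS first, then 3’UTR and 5’UTR, exons without coding sequence, introns within 500 nt of an exon, and other introns. Positions are those of the MANE Select transcript. For a DMSO peak, the partner was the AVJ16 peak with the longest overlap, and differences over 0.5 in size were counted. The steps were tested on simulated peaks. The authors tested clusters between treatments on reads per library, which were not used here; the merged lists hold no replicate values, so no test was made from them. Python 3.11.15, pandas 2.3.3 and numpy 2.4.6 were used.

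The members and lists were chosen with earlier results of these data known. Besides the 8 genes, the text names up to 3 genes per pathway list with the most peaks, listed genes bound in 1 list where these are 5 or fewer, and the 3 genes nearest to SCD by peak numbers. Some genes that this rule names are not reported here. Alternatives covered thresholds, joined peaks, region order, transcripts, overlap, pairing, centring and window length.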

Additional observations from a re-analysis of the deposited data

How the results depend on the processing

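No paired analysis was possible because the deposited lists combine both replicates of a treatment, and leaving out a replicate could not be run for the same reason. Of 142 values under alternatives, 86 stayed within the limits set for a change, 55 moved and 1, the median difference of SC5D, turned its direction. With only peaks of a log2 enrichment of 4 or more, the 8 genes held 17 DMSO and 12 AVJ16 peaks, of which 16 and 11 were in a 3’UTR, and 27 and 21 of the other pathway genes were bound. With touching peaks joined in each list, they held 51 and 55 sites, 39 and 44 of them in a 3’UTR. The share of peaks that overlap the other list was 60.0% (DMSO) and 54.0% (AVJ16) when 50% of both peaks had to overlap, and 100% of AVJ16 peaks with at least 4 were shared. Without SCD, an alternative added after seeing the data, the DMSO share was 66.7%, and 68.8% of DMSO and 72.1% of AVJ16 peaks were in a 3’UTR. Of the shared peaks, 1 was lower and 4 were higher with a limit of 1, 4 were higher with an overlap of 50% of both peaks, and with at least 4 in both lists 1 was lower and 0 were higher. When each AVJ16 peak was paired only once, 5 were lower and 5 higher. The median difference of SQLE was −0.57 base by base. That of SC5D was −0.52 with at least 4 in both lists, where it is the value of a single peak, from 121309526 to 121309545. Under the other alternatives it lay between 0.21 and 0.29. In windows of 31 nt, UCCAG was in 4.05% of DMSO and 3.45% of AVJ16 windows. The causes of these shifts were not tested beyond what each alternative changes by its own construction. The thresholds of the lists and the unknown depth limit every statement about a gene or site without a peak.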
